A study of Mus musculus with 32 samples.

Results

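The genes described here are 37 genes of the amino acid and unfolded-protein stress responses, followed through the reprogramming of mouse embryonic fibroblasts (MEFs) towards pluripotency. They were chosen by name, with earlier results of these data known. All 37 had a column in each of the 32 tables, among 18897 genes with at least 1 molecule counted. They comprise 6 transcription factors and regulators, 5 enzymes of serine and one-carbon metabolism, 6 other amino acid and glutathione enzymes, 5 amino acid transporters, 2 brakes on mTORC1 and a lipoprotein receptor, 6 chaperones and degradation factors of the endoplasmic reticulum (ER), and 6 cytosolic tRNA synthetases. The study followed single cells through induced reprogramming in several media and profiled 16 groups with 2 libraries each, replicates A and B. A2S cultures received ascorbic acid, 2i and the DOT1L inhibitor SGC0946, and were taken on days 2, 4 and 6. A2 cultures lacked SGC0946, S2 cultures lacked ascorbic acid and AS cultures lacked 2i, and each was taken on days 4 and 6. 2i is the pair of CHIR-99021, an inhibitor of GSK3, and PD-0325901, an inhibitor of MEK. FBS cultures received none of these small molecules, by their label, and were taken on days 3, 6, 9 and 12. The reprogramming cultures grew on irradiated MEF feeders with doxycycline, which switches on the reprogramming factors, and the medium of every culture held 15% serum and leukemia inhibitory factor. The references were V6.5 embryonic stem cells with A2S, taken on day 2 (ESC A2S), and without it (ESC), and starting MEFs. The cells were of embryonic age, by their labels, which do not say how many embryos or clones they came from.

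ATF4 is the transcription factor of the integrated stress response. Kinases that sense scarce amino acids or misfolded protein in the ER phosphorylate the translation factor eIF2, which lowers general translation but raises translation of the Atf4 message, and ATF4 then switches on genes that import, make and charge amino acids. The unfolded-protein response adds the branches of XBP1 and ATF6, which induce ER chaperones. Since ATF4 is controlled at translation and XBP1 by splicing of its RNA, the counts of their transcripts measure RNA and not the active protein. Embryonic stem cells are known for a high demand for serine, one-carbon units and certain other amino acids, and fibroblasts for a large load of secreted collagen.

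Part of the promoters of these genes carry letters that the 2 branches are known to read. A few are shown because the results below separate the amino acid genes from the chaperones. The letters do not follow that line throughout, as Herpud1, an ER gene, held both kinds. RefSeq windows from 250 bases before to 50 after the start, on GRCm38.p6, were held for 31 of the 37 genes. The C/EBP-ATF response element was searched as TGATGNAA on both strands. It was found in 10 of these 31 genes (Aars, Asns, Chac1, Gars, Herpud1, Nupr1, Pycr1, Slc7a11, Trib3 and Vldlr) and in 3.97% of all 32851 windows. Here and below, a gene counts once if any of its windows matches, whereas the percentages are of single windows. The gene counts and these percentages are therefore in unlike units. Capitals mark the match, and the other letters are its flanks within the window, 5′ to 3′ on the strand of the gene.
Asns (chr6:7693210-7693252, minus strand): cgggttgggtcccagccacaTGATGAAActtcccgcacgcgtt
Aars (chr8:111033710-111033757, plus strand): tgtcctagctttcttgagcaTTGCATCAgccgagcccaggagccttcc
Chac1 (chr2:119351029-119351076, plus strand): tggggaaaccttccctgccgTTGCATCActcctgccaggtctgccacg
Nupr1 (chr7:126625553-126625600, minus strand): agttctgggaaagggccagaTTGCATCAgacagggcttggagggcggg
The ER stress element, CCAAT and CCACG with 9 bases between them on both strands, was found in 2 of the 31 genes and in 0.119% of all windows. Its second form, ATTGG and CCACG with 1 base between them on both strands, was found in Herpud1 alone and in 0.0365% of all windows. The element bound by XBP1, TGACGTGG on both strands, was in none of the 31 and in 0.676% of all windows. It shares the letters CCACG, on its other strand, with both ER stress elements. A match describes these letters only and is not a binding site shown by these data.
Hspa5 (chr2:34772005-34772063, plus strand): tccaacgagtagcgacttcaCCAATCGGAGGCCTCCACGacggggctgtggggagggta
Hsp90b1 (chr10:86705618-86705676, minus strand): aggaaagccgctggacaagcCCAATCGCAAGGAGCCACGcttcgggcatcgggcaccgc
Herpud1 (chr8:94386357-94386407, plus strand): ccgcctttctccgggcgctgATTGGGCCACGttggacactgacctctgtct
Asns lies on the minus strand at chr6:7675169-7693254, Hspa5 on the plus strand at chr2:34771970-34777547 and Atf4 on the plus strand at chr15:80255184-80257541, in the GENCODE annotation of GRCm38, the assembly that mm10 names.

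Libraries held 138 to 431 cells and 1727490 to 8848775 unique molecules (UMIs), after barcodes that the authors listed as feeder cells were left out, and 34 barcodes occurred in more than 1 library. Counts were summed over the cells of a library and are given below as CPM, counts scaled to the size of the library with TMM factors, as replicate A and then replicate B. Such a sum cannot tell fewer expressing cells from less RNA per cell. Replicates A and B of AS day 4 differed most, with a chi-square per degree of freedom of 8.10, against 1.59 to 3.47 in the other groups. Summed macrophage markers were also uneven between replicates, at 5.58 to 47.4 CPM on AS day 4, 9.48 to 112 on FBS day 6 and 12.0 to 171 on FBS day 12. Fibroblast markers summed to 9640.4 to 10556 CPM in MEF and 7.03 to 7.998 in ESC, and pluripotency markers to 2007 to 2290.3 CPM in ESC and 0.340 to 1.87 in MEF, as the labels say. A gene was called at an adjusted p under 0.05 (edgeR quasi-likelihood test, Benjamini-Hochberg over 13228 genes), with no minimum fold, and every adjusted p and count below is from that test unless said otherwise. Fold changes are log2 values ± SE. The labels do not say that replicates were separate cultures, so these p-values measure the spread between libraries, which may be technical. Of the 37 genes, 36 were tested, and Pycr1, an enzyme of proline synthesis, was too low in every group, at 3.47 CPM or less. Counting by strand is not stated, and 10 of the genes overlap another gene (Ddit3 and Mars overlap each other, and Atf5, Psph, Shmt2, Hsp90b1, Pdia4, Dnajb9, Aars and Wars each overlap 1 or more others), so their values are less certain.

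The map of levels across the 16 groups showed no group in which all of the genes were high. Of the 37 genes, 11 had their highest mean level in MEF, 10 in ESC, 6 in ESC A2S and 4 on A2S day 2, and the other 6 were spread over 5 reprogramming groups. Atf4 itself had 579 and 614 CPM in ESC, 479 and 416 in ESC A2S and 523 and 537 in MEF. Every reprogramming library lay below all of these, between 206 and 333 CPM. Ddit3, which encodes the stress-induced factor CHOP, had 51.3 and 36.1 CPM in MEF and 29.8 CPM or less in every other library. Asns, the enzyme that makes asparagine, had 1091 and 1190.4 CPM in ESC A2S and 293 and 323 CPM in ESC, and it reached at most 199.7 CPM in any other library.

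**Figure D1:**
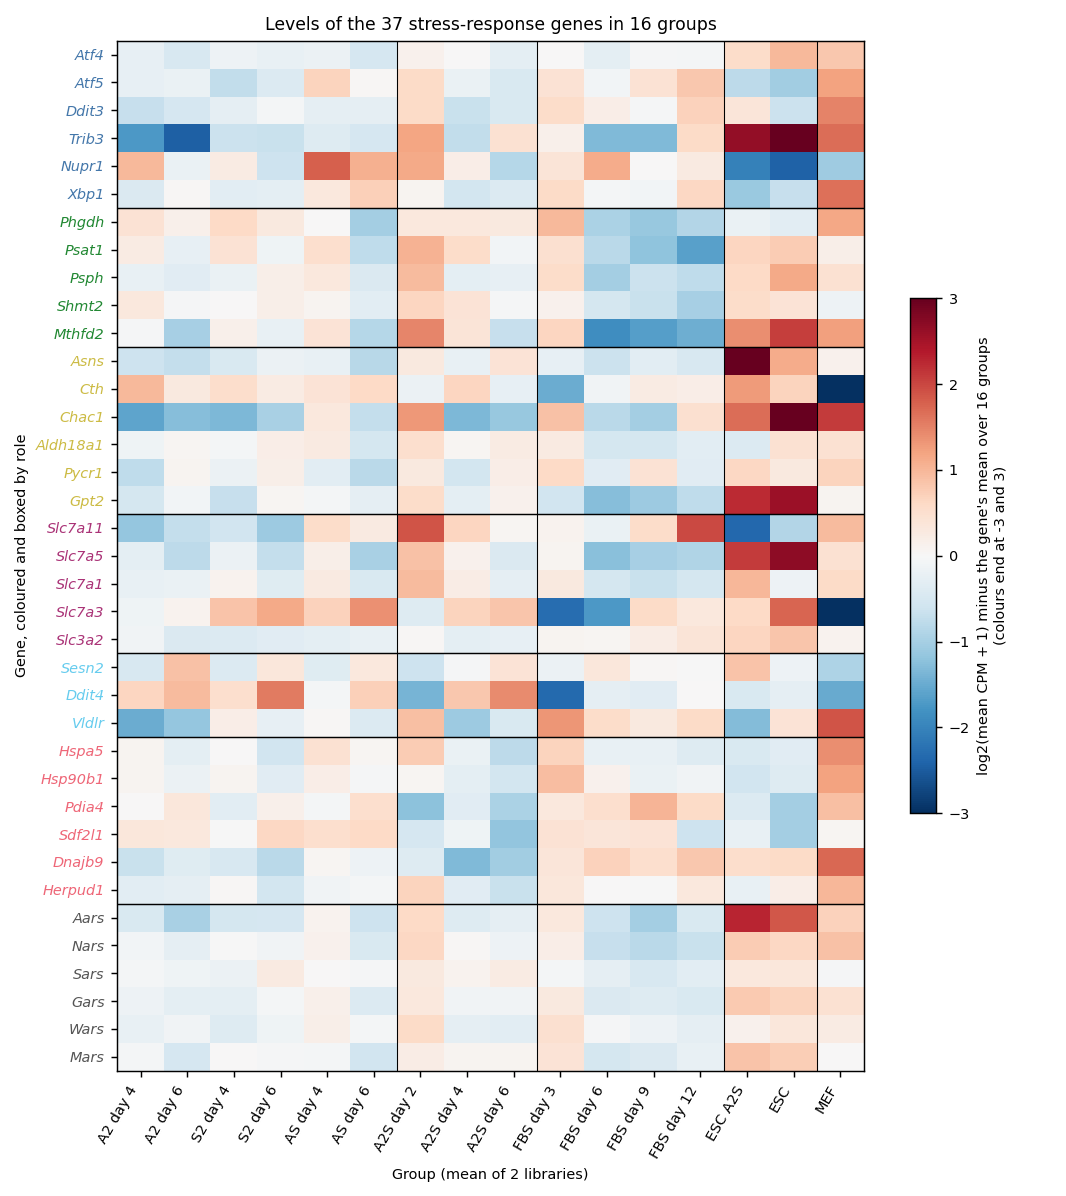
Mean level of each of the 37 genes in the 16 groups, as log2(mean CPM + 1) minus the mean of that gene over the groups (red above it, blue below it), with genes ordered by role. Hspa5, Hsp90b1, Dnajb9, Herpud1 and Xbp1 are highest in the MEF column, Atf4, Mthfd2, Gpt2 and Chac1 in the ESC column, and Asns and Aars in the ESC A2S column.

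The comparison of ESC with MEF gives the end points between which the reprogramming cells are placed. Of the 36 tested genes, 16 were higher and 15 lower in ESC, where 72% of all genes were called (35.6% higher and 36.4% lower). Their median change was 0.20, against 0.00 over all genes. Read against that background, the count of called genes is not a result about these genes, so the directions are given by role. All 6 ER chaperones and degradation factors were lower in ESC, with a median of -1.40, whereas 4 of the 5 serine and one-carbon enzymes were higher and 1 was lower. Of the 5 transporters 3 were higher and 2 was lower, of the 5 other enzymes tested 4 were higher and 0 lower, and of the 6 regulators 1 were higher and 4 lower. Hspa5, the main chaperone of the ER lumen, had 456 and 468 CPM in ESC and 1559.5 and 1540.4 CPM in MEF, a change of -1.75 ± 0.10 (adjusted p = 1.64e-16). Xbp1, whose spliced form induces ER chaperones, had 38.3 and 49.2 CPM in ESC and 240.0 and 213 CPM in MEF. For both genes the ESC libraries lay far below the MEF libraries, with no overlap. Xbp1 changed by -2.36 ± 0.13 (adjusted p = 1.82e-16), and Ddit3, with 7.998 and 10.4 CPM in ESC, by -2.23 ± 0.31 (adjusted p = 1.25e-07). The protein disulfide isomerase Pdia4 (-1.95 ± 0.20), the chaperone Hsp90b1 (-1.60 ± 0.10) and the stress factor Atf5 (-2.29 ± 0.15) were also among the genes that fell most in ESC.

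The genes that rose most in ESC were transporters and enzymes. Slc7a3, an importer of cationic amino acids, had 261 and 286 CPM in ESC and 2.04 and 3.87 CPM in MEF, a change of 6.47 ± 0.25 (adjusted p = 1.01e-20). It was close to absent from the MEF libraries. Slc7a5, which imports large neutral amino acids, had 332 and 329 CPM in ESC and 67.1 and 72.5 CPM in MEF (2.24 ± 0.16). Cth, which makes cysteine, had 302 and 359 CPM in ESC and 15.0 and 8.55 CPM in MEF (4.84 ± 0.25), and Gpt2, a mitochondrial alanine aminotransferase, changed by 2.55 ± 0.14. These groups also did not overlap. Chac1, which degrades glutathione, rose as well, with 75.8 and 76.6 CPM in ESC and 26.5 and 31.2 CPM in MEF. So did Trib3, which dampens ATF4 and CHOP, with 58.1 and 59.2 CPM in ESC and 20.7 and 22.4 CPM in MEF. Trib3 was the 1 regulator of 6 that was higher, and 4 were lower, Ddit3 and Atf5 among them. Chac1 changed by 1.39 ± 0.26 and Trib3 by 1.44 ± 0.27. Atf4 had the higher values in both ESC libraries but was not called (0.17 ± 0.08, adjusted p = 0.0713), while Asns was called (0.99 ± 0.14, adjusted p = 2.33e-07). Among genes of the same pathways outside the 37, 20 of 25 further unfolded-protein response genes were lower and 1 was higher, led by the degradation factor Sel1l (-2.30 ± 0.12) and the co-chaperone Dnajc3 (-2.27 ± 0.11). Of the other cytosolic tRNA synthetases, 9 of 14 were higher and 0 were lower, and of the mitochondrial ones 13 of 17 were higher and 1 was lower. Of 24 further ATF4 targets, 10 were higher, led by Cbs (4.89 ± 0.37), an enzyme of the path to cysteine, and 8 were lower, led by Rab32 (-4.23 ± 0.29), a small GTPase. Of 15 genes of the eIF2 kinases, phosphatases and exchange factor, 5 were higher and 0 lower. Of the 31 calls, 29 held under every alternative tried and with any 1 library left out. A scaling to library totals in place of TMM moved the median of all genes by 0.33, gave 21 genes higher and 14 lower, and turned the synthetase Nars round, from a call of lower to 0.05 (adjusted p = 0.634).

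**Figure D2:**
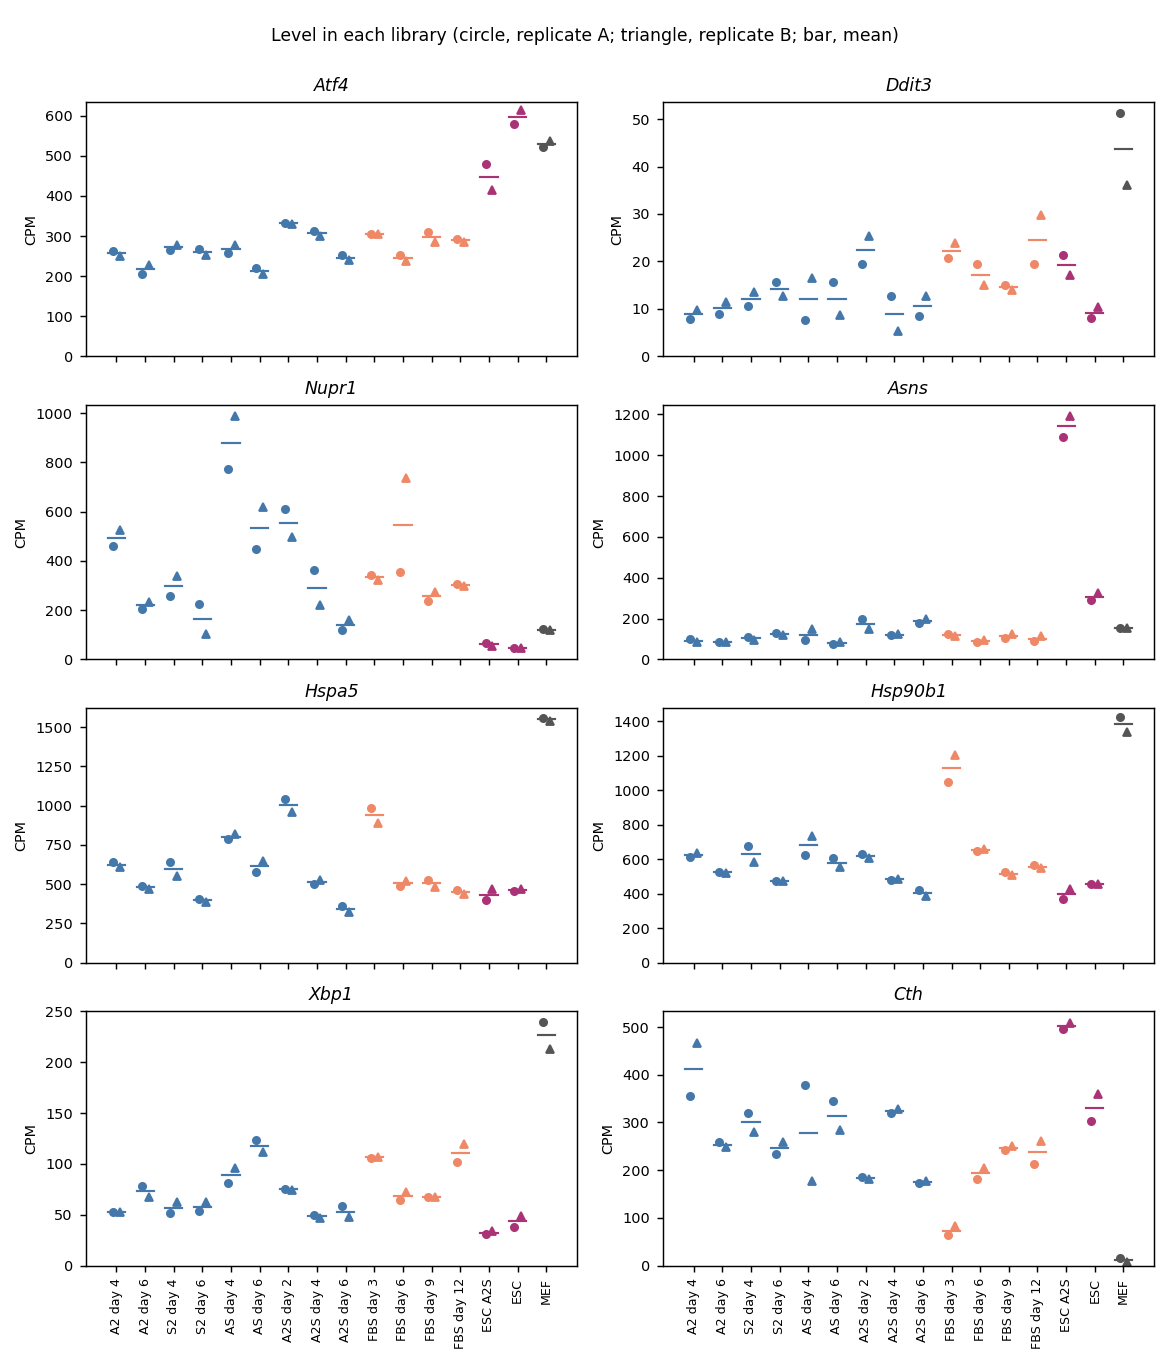
Level in CPM of 8 of the genes in each of the 32 libraries, 1 point per library, by group. Asns stands apart in both ESC A2S libraries, Ddit3, Hspa5, Hsp90b1 and Xbp1 are highest in MEF, and Nupr1 is highest in the AS day 4 libraries.

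After 3 days in FBS medium, ER genes and several regulators were lower than in the starting MEFs. On FBS day 3, 6 of 36 genes were higher and 17 lower than in MEF, where 40.7% of all genes were called (18.2% higher and 22.5% lower), and the median change was -0.36, against -0.01 over all genes. Of the ER genes, 5 of 6 were lower and 1, Sdf2l1, was higher. Of these calls, Hsp90b1 (-0.29 ± 0.09) was lost without FBS day 3 A (-0.20, adjusted p = 0.192) or MEF A (-0.25, adjusted p = 0.0997) and with library totals (-0.09), and Pdia4 (-0.59 ± 0.17) without FBS day 3 A (-0.50, adjusted p = 0.0789), with library totals (-0.38) and with feeder-listed barcodes kept (-0.33). Sdf2l1 (0.40 ± 0.15) was lost without FBS day 3 A, FBS day 3 B or MEF B (0.28 to 0.47, adjusted p from 0.0584 to 0.28), with DESeq2 (0.38), with no count filter (0.36) and with feeder-listed barcodes kept (0.17). Library totals gave 8 genes higher and 13 lower in place of 6 and 17. Fibroblast markers summed to 3786 to 3799 CPM on FBS day 3 and 9640.4 to 10556 CPM in MEF, with all 6 called lower, and their part was not tested. Hspa5 had 986 and 889 CPM on FBS day 3, against 1559.5 and 1540.4 CPM in MEF (-0.73 ± 0.09, adjusted p = 1.75e-07). Ddit3 had 20.7 and 23.8 CPM on FBS day 3, against 51.3 and 36.1 CPM in MEF (-0.97 ± 0.25, adjusted p = 0.00242). Both FBS libraries were below both MEF libraries for each of these genes. Xbp1 changed by -1.09 ± 0.12 and Atf4 by -0.79 ± 0.09 (adjusted p = 6.61e-09), and the ER co-chaperone Dnajb9 by -1.41 ± 0.23. Cth was the gene that rose most, with 63.6 and 82.1 CPM on FBS day 3 and 15.0 and 8.55 CPM in MEF (2.66 ± 0.27). Nupr1, a small stress-induced nuclear protein, had 343 and 323 CPM on FBS day 3 and 122 and 118 CPM in MEF (1.47 ± 0.26). Of the further unfolded-protein response genes, 17 of 25 were lower and 0 higher, led by Pdia3 (-1.22 ± 0.15), an isomerase that works on glycoproteins, and by Ufm1 (-0.99 ± 0.11), a small protein tag used at the ER. The mitochondrial synthetases moved the other way, with 9 of 17 higher and 0 lower. 13 of the 23 calls held under every alternative and with any 1 library left out. Psat1, called higher at 0.30 ± 0.09, changed to -0.05 when the barcodes on the feeder list, 35.8% and 26.9% of the FBS day 3 libraries, were kept, and its call was lost without FBS day 3 A (0.26, adjusted p = 0.0586) or MEF A (0.25, adjusted p = 0.0785). The call of Ddit3 was lost without MEF A (-0.70, adjusted p = 0.0727) and with the listed barcodes kept (-0.35, adjusted p = 0.347).

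From day 3 to day 12 in FBS, the serine enzymes fell together. All 5 were lower on FBS day 12 than on FBS day 3, with a median of -1.88. Over the 36 genes, 6 were higher and 16 lower, where 45.7% of all genes were called (22.8% higher and 22.9% lower), with a median of -0.36 against 0.00 over all genes. Mthfd2, a mitochondrial one-carbon enzyme, had 20.0 and 31.8 CPM on FBS day 12 and 117 and 112 CPM on FBS day 3 (-2.12 ± 0.17, adjusted p = 2.11e-11). Psat1, the second enzyme of serine synthesis, had 123 and 137 CPM on FBS day 12 and 579 and 554 CPM on FBS day 3 (-2.12 ± 0.10, adjusted p = 1.02e-16). Phgdh, the first enzyme of that path, had 30.3 and 33.3 CPM on FBS day 12 and 116 and 118 CPM on FBS day 3 (-1.88 ± 0.21). All 3 were lower in each day 12 library than in each day 3 library. Psph, which completes serine synthesis, changed by -1.35 ± 0.19, and Shmt2, which turns serine into glycine in mitochondria, by -1.11 ± 0.14. The tRNA synthetases followed, with 5 of 6 lower and 0 higher, and of the 14 cytosolic synthetases outside the 37, 12 were lower and 0 higher, led by Rars (-1.28 ± 0.19) and Yars (-0.96 ± 0.13), which charge arginine and tyrosine.

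The genes that rose in FBS medium were fewer. Slc7a3 had 107 and 95.3 CPM on FBS day 12 and 10.9 and 20.7 CPM on FBS day 3 (2.69 ± 0.24, adjusted p = 1.29e-10), without overlap. Ddit4, a brake on mTORC1, had 77.7 and 101 CPM on FBS day 12 and 19.6 and 14.1 CPM on FBS day 3 (2.40 ± 0.21). Cth changed by 1.71 ± 0.22. Atf4 was not called (-0.08 ± 0.09, adjusted p = 0.511), with 293 and 286 CPM on FBS day 12 and 306 and 306 CPM on FBS day 3. Of 22 calls, 18 held throughout. The fibroblast marker sum was 4807 to 5223 CPM on day 12 and 3786 to 3799 CPM on day 3, and the pluripotency marker sum was 148 to 217 CPM and 0.940 to 1.44 CPM. On day 3, Zfp42, Esrrb and Dppa5a were at 0 in both libraries. The part of this change in cell makeup in the falls was not tested.

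Set against ESC, the end of the FBS course was lower in the same metabolic groups. On FBS day 12, 7 of 36 genes were higher and 22 lower than in ESC, where 66.6% of all genes were called (33.9% higher and 32.7% lower), and the median was -0.60 against 0.01 over all genes. All 5 serine enzymes and all 6 tRNA synthetases were lower, with medians of -1.93 and -1.06, and so were 13 of the 14 other cytosolic synthetases. The call of Phgdh (-0.58 ± 0.24) was lost whichever of the 4 libraries was left out (-0.51 to -0.65, adjusted p from 0.0691 to 0.138). Of 29 calls in all, 25 held throughout. Mthfd2 had 20.0 and 31.8 CPM on FBS day 12 and 295 and 323 CPM in ESC (-3.56 ± 0.16). Slc7a5 had 18.8 and 34.8 CPM on FBS day 12 and 332 and 329 CPM in ESC (-3.60 ± 0.21). Asns had 89.6 and 114 CPM on FBS day 12 and 293 and 323 CPM in ESC (-1.59 ± 0.16). None of these overlapped between groups. Atf4 changed by -1.04 ± 0.09 (adjusted p = 1.22e-11). Nupr1 went the other way, with 307 and 299 CPM on FBS day 12 and 46.3 and 45.5 CPM in ESC (2.72 ± 0.31), and Xbp1 was higher by 1.34 ± 0.15. The fibroblast sum was 4807 to 5223 CPM on FBS day 12 and 7.03 to 7.998 CPM in ESC, and its part was not tested.

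After 2 days in A2S medium, part of the amino acid genes were higher and the ER genes lower than in MEFs. On A2S day 2, 12 of 36 genes were higher and 14 lower than in MEF, where 49.7% of all genes were called (22.8% higher and 26.9% lower), and the median was -0.02 against -0.01 over all genes. With library totals, which moved the median of all genes by 0.28, 16 were higher and 10 lower. All 6 ER genes were lower, with a median of -0.90. Of these calls, Herpud1 (-0.34 ± 0.11) was lost with library totals (-0.06, adjusted p = 0.712), with feeder-listed barcodes kept (-0.27, adjusted p = 0.0729) and without A2S day 2 B (-0.27) or MEF A (-0.21). Sdf2l1 (-0.58 ± 0.16) was lost with library totals (-0.30, adjusted p = 0.115) and without A2S day 2 A (-0.47) or MEF A (-0.46). Hsp90b1 had 631 and 605 CPM on A2S day 2, against 1425 and 1340.4 CPM in MEF (-1.16 ± 0.09). Xbp1 had 75.7 and 74.6 CPM on A2S day 2, against 240.0 and 213 CPM in MEF (-1.59 ± 0.12, adjusted p = 7.09e-13). Of the further unfolded-protein response genes, 19 of 25 were lower and 1 was higher, led by Pdia6 (-1.51 ± 0.09) and Pdia3 (-1.25 ± 0.15), both disulfide isomerases. Cth had 186 and 182 CPM on A2S day 2, against 15.0 and 8.55 CPM in MEF (4.00 ± 0.25, adjusted p = 1.55e-14). Psat1 had 875 and 812 CPM on A2S day 2, against 448 and 475 CPM in MEF (0.87 ± 0.09). Both enzymes were higher in each A2S library than in each MEF library, as was Nupr1 (2.20 ± 0.26). The stress cytokine Gdf15 (3.27 ± 0.21) and the glutamine transporter Slc1a5 (2.69 ± 0.14) led the further ATF4 targets, of which 11 of 24 were higher and 7 lower. Atf4 was lower (-0.68 ± 0.09, adjusted p = 6.86e-08), and so was Ddit3 (-0.94 ± 0.24), whose call was lost without MEF A (-0.68, adjusted p = 0.0621). With library totals, Nars changed sign, at 0.01. Of 26 calls, 14 held throughout. The summed fibroblast markers were at 1973 to 2017 CPM on A2S day 2 and 9640.4 to 10556 CPM in MEF, with all 6 called lower, while 3 of 6 macrophage markers were called higher (18.5 to 36.6 CPM on A2S day 2 and 10.03 to 14.02 CPM in MEF, where Tyrobp and C1qa were at 0). Their part was not tested.

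From day 2 to day 6 in A2S, most of the genes fell. Of the 36, 3 were higher and 24 lower on A2S day 6 than on A2S day 2, where 50.3% of all genes were called (26.2% higher and 24.1% lower). The median change was -0.74, against 0.04 over all genes. 4 of the 5 serine enzymes and 4 of the 6 ER genes were lower, and none of either was higher. Of these calls, Sdf2l1 (-0.73 ± 0.21) was lost without A2S day 2 B (-0.61, adjusted p = 0.0561). Mthfd2 had 46.8 and 42.8 CPM on A2S day 6 and 205 and 198 CPM on A2S day 2 (-2.17 ± 0.14, adjusted p = 4.60e-14). Hspa5 had 360.1 and 323 CPM on A2S day 6 and 1045 and 956 CPM on A2S day 2 (-1.55 ± 0.10, adjusted p = 3.18e-14). Nupr1 had 119 and 161 CPM on A2S day 6 and 611 and 496 CPM on A2S day 2 (-1.99 ± 0.26). Each day 6 library was below each day 2 library for these genes. Listed feeder cells, in which Nupr1 was high (595 CPM by library totals), were 27.2% and 23.2% of the A2S day 2 barcodes. On A2S day 6 they were 1.29% and 0.386%. The part of feeder cells that the list missed was not tested. Herpud1, an ER degradation factor, changed by -1.35 ± 0.14, Slc7a5 by -1.31 ± 0.19, and Atf4 by -0.43 ± 0.09 (adjusted p = 1.43e-04). Asns and Phgdh were not called, at 0.13 ± 0.14 and -0.03 ± 0.17 (adjusted p = 0.479 and 0.897).

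Ddit4 moved against most of the other genes. It had 211 and 268 CPM on A2S day 6 and 36.7 and 29.9 CPM on A2S day 2, a change of 2.85 ± 0.16 (adjusted p = 3.25e-15). Slc7a3 rose too, with 156 and 133 CPM on A2S day 6 and 69.9 and 53.5 CPM on A2S day 2 (1.24 ± 0.18). Neither overlapped between the days. Outside the 37, 16 of 25 unfolded-protein response genes were lower and 2 were higher, led by Dnajc3 (-1.53 ± 0.11) and Atf6b (-1.25 ± 0.14), a relative of ATF6. Among further ATF4 targets Cbs rose by 3.43 ± 0.30. Epithelial markers summed to 728 to 770.0 CPM on day 6 and 6.07 to 8.54 CPM on day 2, fibroblast markers to 708 to 965 CPM and 1973 to 2017 CPM, and their part was not tested. 20 of 27 calls held throughout.

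**Figure D3:**
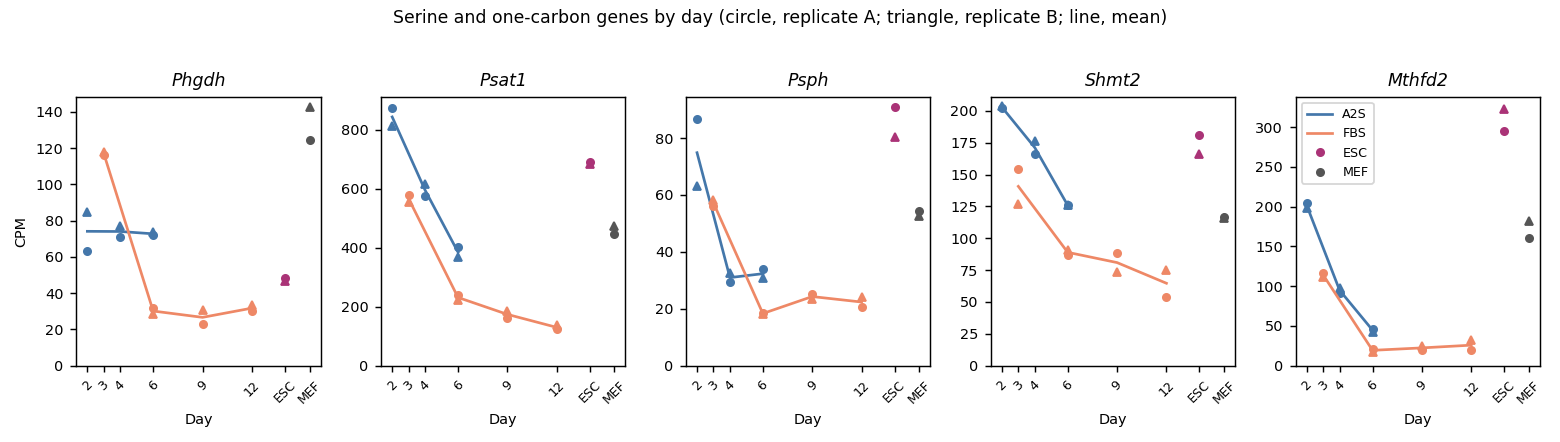
Level in CPM of Phgdh, Psat1, Psph, Shmt2 and Mthfd2 by day in A2S and FBS cultures, with ESC and MEF beside them, 1 point per library and lines through group means. All 5 enzymes are lower on the last FBS day than on the first, all but Phgdh are lower on A2S day 6 than on A2S day 2, and on day 6 the A2S libraries lie above the FBS libraries.

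At day 6 the media could be compared on the same day. On A2S day 6, 17 of 36 genes were higher and 11 lower than on FBS day 6, where 52.8% of all genes were called (27.3% higher and 25.4% lower), with a median of 0.31 against 0.03 over all genes. All 5 serine enzymes and 5 of 6 tRNA synthetases were higher in A2S, with 8 of the 14 other cytosolic synthetases, while all 6 ER genes were lower, with a median of -1.10. The call of Gars (0.33 ± 0.12) was lost with any of the 4 libraries left out (0.28 to 0.38, adjusted p from 0.0546 to 0.135), and that of Aars (0.35 ± 0.11) without A2S day 6 B (0.25, adjusted p = 0.133) or FBS day 6 B (0.29, adjusted p = 0.0784). Both were also lost with feeder-listed barcodes kept (0.28 and 0.21), and 14 genes were then higher and 13 lower. Phgdh had 72.0 and 73.5 CPM on A2S day 6 and 31.8 and 28.6 CPM on FBS day 6 (1.26 ± 0.20, adjusted p = 4.52e-06). Mthfd2 had 46.8 and 42.8 CPM on A2S day 6 and 21.2 and 17.6 CPM on FBS day 6 (1.18 ± 0.19). Asns had 179 and 199.7 CPM on A2S day 6 and 85.1 and 96.6 CPM on FBS day 6 (1.07 ± 0.16, adjusted p = 1.05e-06). In each case the A2S libraries were the higher ones. Slc7a3 (2.58 ± 0.21), Ddit4 (1.71 ± 0.15) and Gpt2 (1.51 ± 0.21) were higher as well. Hspa5 had 360.1 and 323 CPM on A2S day 6 and 488 and 520.1 CPM on FBS day 6 (-0.56 ± 0.10, adjusted p = 1.55e-05). Pdia4 had 29.3 and 15.4 CPM on A2S day 6 and 70.0 and 56.7 CPM on FBS day 6 (-1.51 ± 0.21). Sdf2l1, a subunit of the ER chaperone complex, changed by -1.62 ± 0.20. Xbp1 was lower by the test at -0.35 ± 0.14, a call lost without A2S day 6 B (-0.22, adjusted p = 0.308) or FBS day 6 B (-0.28, adjusted p = 0.188).

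Atf4 was not called between the media on day 6 (0.00 ± 0.09, adjusted p = 1), with 253 and 239 CPM on A2S day 6 and 253 and 239 CPM on FBS day 6. Ddit3 was -0.73 ± 0.34 (adjusted p = 0.0681). Nupr1 had 119 and 161 CPM on A2S day 6 and 355 and 736 CPM on FBS day 6 (-1.95 ± 0.27), and the FBS libraries were far from each other. Without FBS day 6 B, the library with the macrophage markers, the change in Nupr1 was -1.35. Of the further unfolded-protein response genes, 14 of 25 were lower and 1 was higher, with Atf6 at -1.12 ± 0.14, and of the further ATF4 targets Cbs was at 3.68 ± 0.34 and Gdf15 at 3.03 ± 0.29. Fibroblast markers summed to 708 to 965 CPM on A2S day 6 and 4651 to 4935 CPM on FBS day 6, and epithelial markers to 728 to 770.0 CPM and 13.6 to 16.7 CPM. In FBS, Cldn6 and Cldn7 were at 0 in both libraries. The part of these cells in the split was not tested. Of 28 calls, 20 held throughout.

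A2S was also given to embryonic stem cells. In ESC A2S, 7 of 36 genes were higher and 12 lower than in ESC, where 46.7% of all genes were called (25.2% higher and 21.5% lower), with a median of -0.11 against 0.03 over all genes. With library totals, 6 were higher and 17 lower. Asns had 1091 and 1190.4 CPM in ESC A2S and 293 and 323 CPM in ESC, a change of 1.89 ± 0.14 (adjusted p = 1.43e-12). It was the gene that rose most among the 36, and each ESC A2S library was above each ESC library. Slc7a1, a cationic amino acid importer, had 176 and 184 CPM in ESC A2S and 85.9 and 76.6 CPM in ESC (1.15 ± 0.13). Slc7a3, which carries the same kind of amino acid, had 122 and 126 CPM in ESC A2S and 261 and 286 CPM in ESC (-1.14 ± 0.16, adjusted p = 9.15e-07). These importers moved in opposite directions, without overlap. Chac1 had 21.6 and 21.1 CPM in ESC A2S and 75.8 and 76.6 CPM in ESC (-1.83 ± 0.28), and Aldh18a1, which starts proline synthesis, had 51.3 and 48.1 CPM in ESC A2S and 88.8 and 93.6 CPM in ESC (-0.88 ± 0.14). Both were lower in A2S, as were Mthfd2 (-0.68 ± 0.12), Slc7a5 (-0.57 ± 0.15) and Atf4 itself (-0.41 ± 0.09, adjusted p = 1.86e-04). Of the 6 regulators, 1 was higher and 2 were lower in ESC A2S. Ddit3 had 139 UMIs in the ESC A2S libraries together, against 47 in ESC. These are unscaled counts, from libraries of 3741448 and 3721525 UMIs in ESC A2S and 2227968 and 2561767 in ESC. The libraries of ESC A2S and ESC also differed in markers. Fibroblast markers were at 61.9 to 81.3 CPM in ESC A2S and 7.03 to 7.998 CPM in ESC (4 of 6 called higher). Neural markers summed to 168 to 172 CPM in ESC A2S and 78.4 to 84.6 CPM in ESC. Of the 2 neural markers tested, 1 was called higher and 1 lower. Gfap was at 0 in both groups and Sox10 at 0 in ESC A2S. The part of these in the differences was not tested.

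The synthetase Aars rose (0.44 ± 0.09), and so did Sdf2l1 (0.83 ± 0.21), which lost its call without ESC B (0.64, adjusted p = 0.0562). Hspa5 was at -0.10 ± 0.10 (adjusted p = 0.417) and Xbp1 at -0.44 ± 0.16 (adjusted p = 0.0218). Outside the 37, the ER factor Creld2 (1.001 ± 0.14) and the chaperone Calr (0.91 ± 0.11) rose, as did Gdf15 (2.00 ± 0.28) and the branched-chain aminotransferase Bcat1 (1.95 ± 0.11), while the growth-arrest gene Gadd45a fell (-2.72 ± 0.20). Slc7a11, the cystine importer, is named after its values were seen. It had 3 UMIs in the ESC A2S libraries together, against 15 in ESC, a ratio of 0.141 with a counting interval of 0.0261 to 0.497. With the feeder-listed barcodes kept, which were 14.2% and 11.2% of the ESC A2S libraries, Xbp1 changed to 0.07. Its call was also lost without ESC A2S A (-0.39, adjusted p = 0.124), ESC A2S B (-0.49, adjusted p = 0.0502) or ESC B (-0.25, adjusted p = 0.368). Of 19 calls, 10 held throughout.

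**Figure D4:**
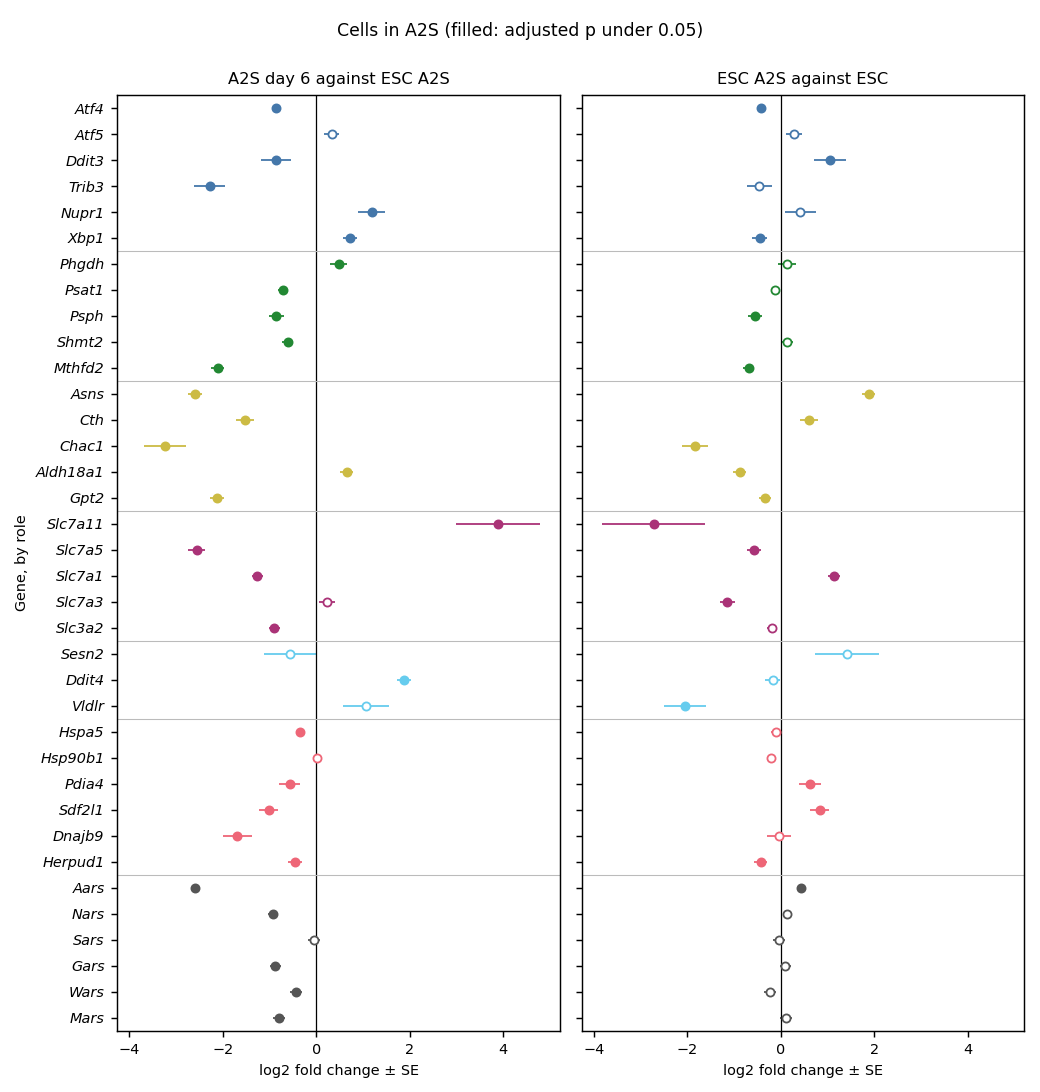
Log2 fold change ± SE of each tested gene for A2S day 6 against ESC A2S and for ESC A2S against ESC, with filled points for called genes. Asns is at -2.59 ± 0.14 on A2S day 6 against ESC A2S and at 1.89 ± 0.14 in ESC A2S against ESC.

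Against stem cells in the same medium, A2S day 6 cells were low in most of the 36 genes. 6 were higher and 24 lower than in ESC A2S, where 63.3% of all genes were called (32.1% higher and 31.2% lower), and the median was -0.75 against 0.02 over all genes. This comparison shares the ESC A2S libraries with the one before. Asns had 179 and 199.7 CPM on A2S day 6 and 1091 and 1190.4 CPM in ESC A2S (-2.59 ± 0.14, adjusted p = 6.49e-16). Aars had 100.4 and 115 CPM on A2S day 6 and 633 and 655 CPM in ESC A2S (-2.58 ± 0.10). Slc7a5 had 44.0 and 31.4 CPM on A2S day 6 and 220.0 and 224 CPM in ESC A2S (-2.56 ± 0.18). All of these were lower in each A2S day 6 library, and so was Atf4 (-0.86 ± 0.09). Hspa5 was at -0.34 ± 0.10, a call lost without A2S day 6 B (-0.26, adjusted p = 0.0705) or ESC A2S B (-0.24, adjusted p = 0.0848). Ddit4 had 211 and 268 CPM on A2S day 6 and 66.3 and 63.0 CPM in ESC A2S (1.89 ± 0.15), and Xbp1 had 58.3 and 48.0 CPM on A2S day 6 and 30.8 and 33.8 CPM in ESC A2S (0.72 ± 0.15). These were higher in the reprogramming cells. Nupr1 was higher by 1.19 ± 0.29, but at -0.23 with feeder-listed barcodes kept, when Xbp1 was at 0.16 (adjusted p = 0.341). Chac1, with 3.43 and 0.980 CPM on A2S day 6 and 21.6 and 21.1 in ESC A2S, changed by -3.24 ± 0.45, and by -4.39 without A2S day 6 A and -2.62 without A2S day 6 B. Among other pathway genes, the translation repressor Eif4ebp1 (-2.19 ± 0.10), the synthetase Tars (-1.33 ± 0.11) and the eIF2 subunit Eif2s2 (-2.21 ± 0.13) were lower. Of 30 calls, 22 held throughout. Fibroblast markers summed to 708 to 965 CPM on A2S day 6 and 61.9 to 81.3 CPM in ESC A2S, pluripotency markers to 435 to 525 CPM and 3351 to 3361 CPM, and the part of the cell makeup was not tested.

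The media that lack 1 agent were compared with A2S at the same day. On day 4, 4 genes were higher and 5 lower in A2 than in A2S, where 14.4% of all genes were called (7.98% higher and 6.46% lower), and 1 was higher and 1 lower in S2 than in A2S, where 6.56% were called (3.33% higher and 3.24% lower). In AS, 12 were higher and 1 lower than in A2S, where 29.9% were called (16.3% higher and 13.6% lower). With library totals, the A2 count was 1 higher and 7 lower and the AS count 12 higher and 3 lower, and with RLE factors the A2 count was 3 higher and 6 lower. Without AS day 4 B, the AS count was 7 higher and 4 lower. The medians were -0.13, -0.11 and 0.21 for A2, S2 and AS, against 0.00, 0.00 and 0.00 over all genes. The 3 comparisons share the A2S libraries. Listed feeder cells, in which Nupr1 was high (595 CPM by library totals), were 6.08% and 9.23% of the AS day 4 barcodes. They were 1.62% and 1.14% on A2 day 4 and 0.417% and 0% on A2S day 4. The part of feeder cells that the list missed was not tested. Nupr1 had 462 and 526 CPM on A2 day 4, 772 and 986 CPM on AS day 4 and 362 and 222 CPM on A2S day 4. Both media without 1 agent were above A2S, by 0.74 ± 0.25 for A2 (adjusted p = 0.046) and 1.58 ± 0.25 for AS (adjusted p = 1.29e-05). For A2 the call was lost without A2 day 4 A (0.83, adjusted p = 0.107), A2 day 4 B (0.65, adjusted p = 0.188) or A2S day 4 B (0.45, adjusted p = 0.416). Hspa5 had 787 and 816 CPM on AS day 4 and 499 and 525 CPM on A2S day 4 (0.65 ± 0.10), and Atf5 was higher by 0.91 ± 0.15 and Xbp1 by 0.89 ± 0.14. 4 of the 6 ER genes were higher in AS, 3 in A2 and 1 in S2, and none was lower in any of the 3. In AS the call of Sdf2l1 (0.70 ± 0.17) was lost without AS day 4 B (0.63, adjusted p = 0.0502) or A2S day 4 A (0.54, adjusted p = 0.107). In A2 the calls of Hspa5 (0.29 ± 0.10) and Sdf2l1 (0.55 ± 0.18) were lost with library totals (0.20 and 0.46) and with no count filter (0.29 and 0.55), and Sdf2l1 also with DESeq2 (0.53). With 1 library left out, Hspa5 in A2 was called with none of the 4 (0.25 to 0.33, adjusted p from 0.0743 to 0.271), Sdf2l1 was lost without A2 day 4 A (0.31) or A2S day 4 A (0.39), and Hsp90b1 (0.37 ± 0.10) without A2 day 4 B (0.35) or A2S day 4 A (0.36). On day 4, fibroblast markers summed to 1937 to 1944 CPM in A2, 878 to 1292 CPM in S2, 3220.0 to 3894 CPM in AS and 909 to 1109 CPM in A2S, with 5 of 6 called higher in AS, 2 in A2 and none in S2, where 2 were lower. Epithelial markers summed to 54.4 to 54.7 CPM in A2, 149 to 169 CPM in S2, 24.2 to 27.4 CPM in AS and 210.0 to 255 CPM in A2S, with Cldn7 at 0 in A2 and AS. Their part was not tested. In S2 the only called genes were Hsp90b1 (0.38 ± 0.10) and Atf5 (-0.54 ± 0.17), and Atf5 changed sign with feeder-listed barcodes kept, at 0.10. Both calls were lost without A2S day 4 A (0.38 and -0.58), A2S day 4 B (0.39 and -0.52) or S2 day 4 A (0.27 and -0.30), with adjusted p from 0.0714 to 0.521. None of the 9 calls in A2 and none of the 2 in S2 held under every alternative and with any library left out, against 8 of 13 in AS. On day 4 Atf4 was called in none of the 3 media by edgeR, with changes of -0.26 ± 0.09 in A2, -0.18 ± 0.09 in S2 and -0.20 ± 0.09 in AS (adjusted p = 0.0538, 0.286 and 0.0933).

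On day 6, most of the ER genes were higher in A2 and AS than in A2S, and a smaller part of them in S2. 5 of 6 were higher in A2 than in A2S, with a median of 0.61, 2 in S2 (0.24) and 6 in AS (0.89), and none was lower. With library totals, the A2 count was 5 higher and 9 lower. In A2 the call of Herpud1 (0.39 ± 0.15) was lost with DESeq2 (0.38), RLE factors (0.38), library totals (0.32), no count filter (0.41), cells of 5000 UMIs or more (0.35), the compared groups alone (0.38) and feeder-listed barcodes kept (0.39). It was also lost without A2 day 6 A (0.32), A2 day 6 B (0.48) or A2S day 6 B (0.25), while that of Hsp90b1 (0.37 ± 0.10) was lost without A2S day 6 B (0.32, adjusted p = 0.0569). In AS the call of Dnajb9 (0.95 ± 0.33) was lost without AS day 6 B (0.67, adjusted p = 0.209) or A2S day 6 B (0.68, adjusted p = 0.213). Over the 36 genes, 7 were higher and 7 lower in A2, where 30.8% of all genes were called (15.9% higher and 14.8% lower), 3 higher and 1 lower in S2, where 15.8% were called (7.63% higher and 8.17% lower), and 11 higher and 11 lower in AS, where 39.2% were called (20% higher and 19.2% lower). The medians were -0.16, 0.10 and -0.19, against 0.00, 0.00 and -0.02 over all genes. Sdf2l1 had 35.0 and 34.6 CPM on A2 day 6, 45.6 and 41.5 CPM on S2 day 6, 40.0 and 45.4 CPM on AS day 6 and 10.9 and 12.4 CPM on A2S day 6. Every library without 1 agent was above both A2S libraries, by 1.57 ± 0.19 in A2, 1.90 ± 0.19 in S2 and 1.86 ± 0.19 in AS (adjusted p = 1.58e-07, 1.83e-08 and 2.54e-09). The 3 comparisons share the A2S day 6 libraries, where Sdf2l1 had its lowest mean of the 16 groups (11.7 CPM). Pdia4 was higher by 1.32 ± 0.21 in A2, 1.14 ± 0.22 in S2 and 1.49 ± 0.21 in AS. Hspa5 had 489.9 and 466 CPM on A2 day 6, 405 and 385 CPM on S2 day 6, 578 and 647 CPM on AS day 6 and 360.1 and 323 CPM on A2S day 6. It was called in A2 (0.49 ± 0.10, adjusted p = 2.59e-04) and in AS (0.84 ± 0.10, adjusted p = 3.12e-08) but not in S2 (0.21 ± 0.10, adjusted p = 0.144). Xbp1 was at 0.45 ± 0.14 in A2, where the call was lost without A2 day 6 A (0.35, adjusted p = 0.136) or A2S day 6 B (0.32, adjusted p = 0.181), at 0.12 ± 0.14 in S2 (adjusted p = 0.627) and 1.15 ± 0.13 in AS. The further unfolded-protein response genes had 10 of 25 higher and 1 lower in A2, 6 and 0 in S2, and 14 and 2 in AS, with Pdia6 at 1.02 ± 0.09 and Dnajc3 at 0.88 ± 0.11 in AS.

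**Figure D5:**
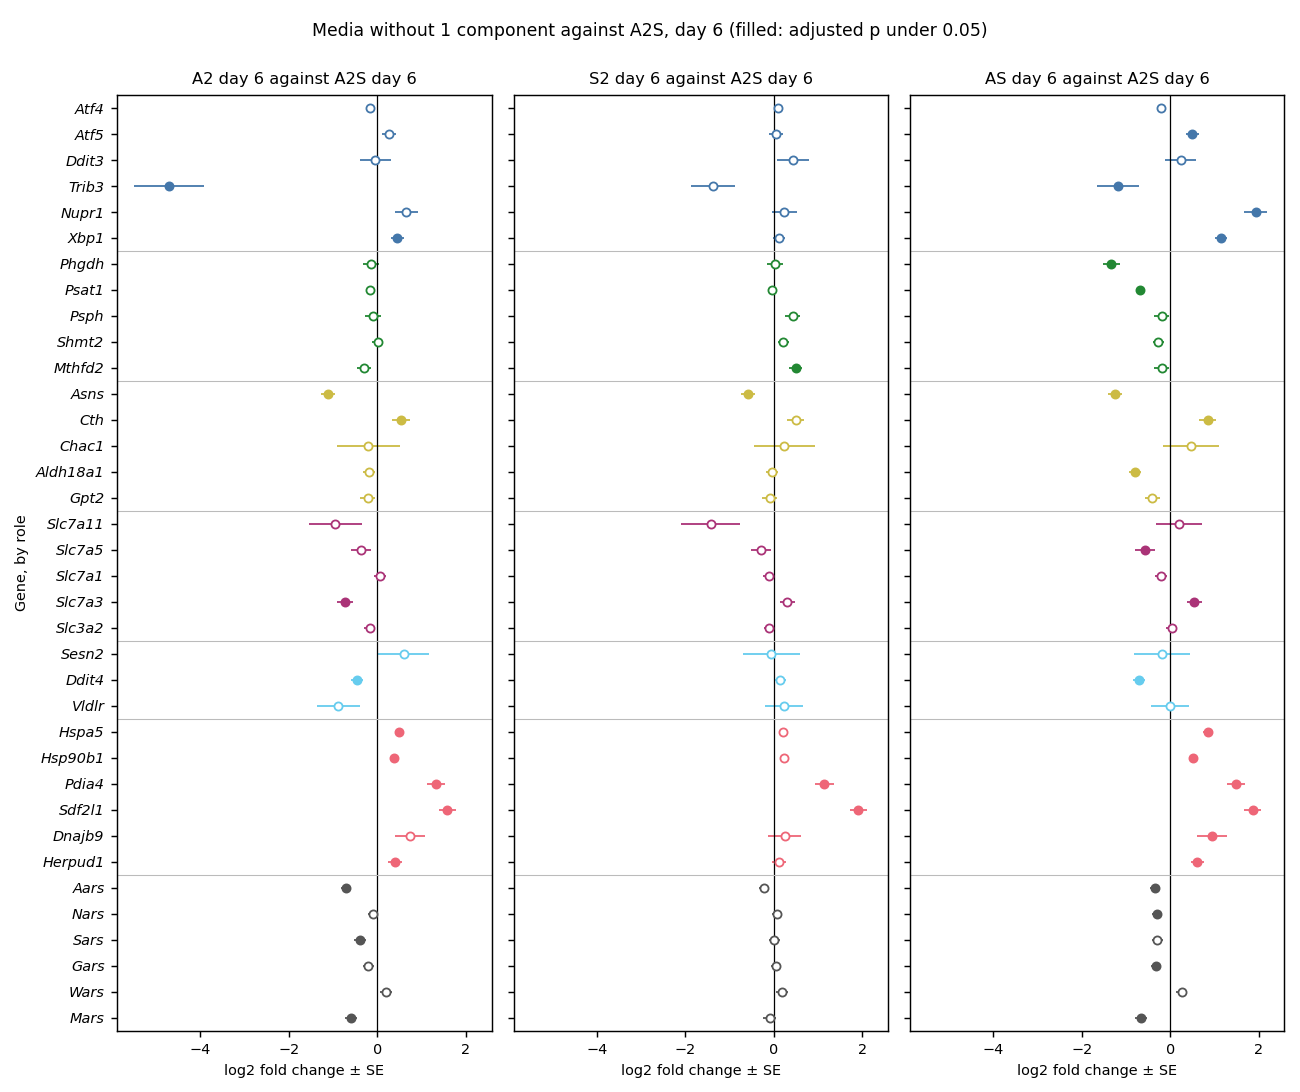
Log2 fold change ± SE of each tested gene on day 6 in A2, S2 and AS, each against A2S, with filled points for called genes and genes ordered by role. The ER genes lie to the right of 0 in A2 and AS, and Asns lies to the left of 0 in all 3 panels.

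Part of the amino acid genes went the other way on day 6. Asns had 86.3 and 87.4 CPM on A2 day 6, 129.5 and 122 CPM on S2 day 6, 75.3 and 84.7 CPM on AS day 6 and 179 and 199.7 CPM on A2S day 6. It changed by -1.12 ± 0.15 in A2, -0.59 ± 0.15 in S2 and -1.24 ± 0.16 in AS (adjusted p = 1.15e-06, 0.00669 and 1.35e-07). In S2 the call was lost without S2 day 6 B (-0.55, adjusted p = 0.0654) or A2S day 6 B (-0.50, adjusted p = 0.0852). Phgdh had 30.9 and 26.6 CPM on AS day 6 and 72.0 and 73.5 CPM on A2S day 6 (-1.33 ± 0.20, adjusted p = 2.64e-06). Aldh18a1 had 41.0 and 49.4 CPM on AS day 6 and 86.7 and 69.3 CPM on A2S day 6 (-0.80 ± 0.15), and Psat1 was at -0.68 ± 0.09 and Ddit4 at -0.70 ± 0.14. Each was lower in both AS libraries. 4 of 6 tRNA synthetases were lower in AS and 3 in A2. In AS the calls of Nars (-0.29 ± 0.11), Gars (-0.32 ± 0.12) and Aars (-0.35 ± 0.11) were lost with no count filter (-0.24, -0.27 and -0.29), and those of Nars and Gars with DESeq2 (-0.28 and -0.30). They were also lost without A2S day 6 B (-0.27, -0.33 and -0.24), Nars and Gars without A2S day 6 A (-0.32 and -0.30), Nars without AS day 6 B (-0.17), and Gars and Aars without AS day 6 A (-0.20 and -0.23). Gars was lost with feeder-listed barcodes kept as well (-0.30). In A2 the call of Sars (-0.39 ± 0.13) was lost without A2 day 6 A, A2 day 6 B or A2S day 6 B (-0.34 to -0.40, adjusted p from 0.0736 to 0.143). Cth, in contrast, was higher in AS by 0.85 ± 0.20, and Nupr1 by 1.93 ± 0.26. Atf4 was called in none of the 3 by edgeR, with -0.18 ± 0.09 in A2 (adjusted p = 0.133), 0.08 ± 0.09 in S2 (adjusted p = 0.577) and -0.21 ± 0.09 in AS (adjusted p = 0.069). Trib3, named after its values were seen, had 2 UMIs in the A2 day 6 libraries, against 55 in A2S day 6, a ratio of 0.0339 with a counting interval of 0.0040 to 0.128. The calls that held throughout were 7 of 14 in A2, 2 of 4 in S2 and 14 of 22 in AS. Fibroblast markers summed to 2254 to 2571 CPM in A2, 908 to 1303 in S2, 2803 to 2826 in AS and 708 to 965 in A2S on day 6. Epithelial markers summed to 110.0 to 125, 424 to 475, 163 to 178 and 728 to 770.0 CPM in the same order, with Cldn7 at 0 in A2, and pluripotency markers to 19.9 to 24.2, 62.0 to 65.4, 20.8 to 48.4 and 435 to 525 CPM, with Dppa5a at 0 in A2, S2 and AS. Both differences between the media therefore came with a difference in cell makeup, and its part was not tested.

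Whether the change from day 4 to day 6 itself differed from that of A2S was tested as an interaction. It was called for 1 gene with a more positive and 2 with a more negative change in A2, 2 and 0 in S2, and 3 and 7 in AS, where 7.6%, 3.35% and 10.6% of all genes were called. Over all genes the more positive calls were 4.51% in A2, 1.79% in S2 and 6.37% in AS, and the more negative ones 3.08%, 1.56% and 4.23%. The medians over the 36 genes were 0.07, 0.12 and -0.23, against 0.01, 0.00 and 0.00 over all genes. The 3 interactions share the A2S libraries of both days, so they are not independent results. Sdf2l1 was called in all 3, at 1.02 ± 0.27 in A2, 1.75 ± 0.27 in S2 and 1.16 ± 0.26 in AS. On day 4 it had 29.3 and 25.8 CPM in S2 and 22.9 and 27.8 CPM in A2S, and the day 6 values are given above. The A2 call was lost without A2 day 4 B (0.87, adjusted p = 0.0583), A2S day 4 B (0.91, adjusted p = 0.0695) or A2S day 6 A (0.93, adjusted p = 0.0715). Asns was called in A2 (-0.74 ± 0.22) and AS (-1.29 ± 0.22), and in A2 the call was lost when any of 6 of the 8 libraries was left out (-0.60 to -0.77, adjusted p from 0.0766 to 0.232). On day 4 it had 100.1 and 84.0 CPM in A2, 93.3 and 149 CPM in AS and 118 and 124 CPM in A2S, so on that day the libraries of the 3 media were closer than on day 6. Without the library AS day 4 B, the calls in AS numbered 5 and not 10, and Phgdh went to -0.45 (adjusted p = 0.368). The interactions that held throughout were none of 3 in A2, Sdf2l1 in S2, and Psat1, Asns, Aldh18a1, Sdf2l1 and Aars in AS.

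Within single cultures, cells with a UMI of Nanog, a pluripotency factor, after thinning to 2000 UMIs were compared with cells that had none. Thinning set the class only, and the counts compared were those of the unthinned cells. A Nanog-zero cell may therefore hold Nanog UMIs that thinning removed. On A2S day 6, 25.7% and 31.5% of cells in libraries A and B were positive at 2000 UMIs, and 35.6% and 45.4% at 4000. On A2S day 6, 56 cells of library A and 75 of library B were Nanog-positive, against 162 and 163 Nanog-zero cells, and on FBS day 12, 7 and 9 cells were positive, against 172 and 168. Of 34 genes tested, 3 were higher and 5 lower in positive cells on A2S day 6, where 19.8% of all genes were called (7.66% higher and 12.1% lower), and 6 and 6 on FBS day 12, where 26.1% were called (10.2% higher and 15.9% lower). On A2S day 6, 1 was higher and 1 lower with DESeq2, and 2 higher and 6 lower with RLE factors. On FBS day 12, 2 were higher and 8 lower with classes set at 1000 UMIs per cell, and 8 higher and 5 lower with library totals. The medians were 0.06 and 0.02, against -0.02 and -0.27 over all genes. Nupr1 had 15 and 41 UMIs in positive cells and 361 and 448 in zero cells of A2S day 6 A and B, a change of -2.48 ± 0.22 (adjusted p = 8.48e-28). It was low in the positive cells of both libraries, and on FBS day 12 it had 0 UMIs in the positive cells of both libraries, against 538 and 586 UMIs in zero cells. With 2 libraries per group, the p-values of this fit rest largely on a spread shared across genes. Over all genes, 2150 were called on A2S day 6, and 429 with DESeq2. Asns on A2S day 6 had 341 and 296 CPM in positive cells and 148 and 169.9 CPM in zero cells of libraries A and B (0.99 ± 0.15, adjusted p = 1.70e-09), and the call was lost without A2S day 6 A (0.79, adjusted p = 0.495). On FBS day 12 Atf4 had 487 and 561 CPM in positive cells and 291 and 273 CPM in zero cells (0.66 ± 0.21, adjusted p = 0.00782), a call lost without FBS day 12 B (0.43, adjusted p = 0.329), with DESeq2 (0.59, adjusted p = 0.17), with no count filter (0.52, adjusted p = 0.0618) and at 1000 UMIs per cell (0.52, adjusted p = 0.0747). Of 8 calls on A2S day 6, 1 held throughout (Nupr1), and 6 of 12 on FBS day 12, where few cells were positive. Of the fibroblast markers, 5 of 6 were lower in positive cells on A2S day 6 and 6 of 6 on FBS day 12, and all 5 epithelial markers were higher in positive cells on both days. The part of these differences in cell type was not tested.

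The share of cells with a UMI, at 2000 UMIs per cell, is given for 4 genes chosen after their values were seen. An Asns UMI was found in 85.3% to 87.9% of ESC A2S cells, 37.9% to 41.2% of ESC cells and 26.1% to 36.97% of A2S day 6 cells, each the lower and the higher library. Without thinning these shares were 97.1% to 97.96%, 89.0% to 92.0% and 70.2% to 71.3%. A Slc7a3 UMI was found in 36.8% to 45.3% of ESC cells and 0.232% to 0.671% of MEF cells, and without thinning in 83.3% to 86.6% and 2.78% to 3.36%. A Cth UMI was found in 25.8% to 30.7% of A2S day 2 cells and 2.01% to 2.78% of MEF cells (71.2% to 73.5% and 10.9% to 16.1% without thinning). A Nupr1 UMI was found in 59.3% to 65.6% of AS day 4 cells and 22.7% to 34.6% of A2S day 4 cells (84.2% to 93.2% and 50.9% to 64.4%). No cell type in these libraries is known to lack any of the 4 genes, so the background from free RNA in the droplets was not measured, and a share of cells with a UMI is not a share of expressing cells. No test of these shares was run, as an exact permutation test of 2 libraries against 2 gives no p under 0.333.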

How the data were processed

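For each of 32 libraries the authors deposited unnormalized whole-number counts of UMIs, by cell and by gene, from 3' transcript ends (Bio-Rad ddSEQ, SureCell kit), per the labels' protocols. Demultiplexing used bcl2fastq 2.19 and alignment used STAR and mm10, per the submitters' processing notes, and the sources used here do not give the annotation, the counting program or the use of strand. Counts of 3' ends do not tell isoforms apart.

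The 37 genes and all gene and marker lists were chosen with earlier results of these data known. Of 8334 barcodes, 689 on the authors' feeder list, matched by barcode alone, were left out and 7645 kept. 3 further columns of that list were not used. No doublet caller was run, so single-cell classes and shares may include doublets. Counts were summed per library and fitted with edgeR 4.0.16 (TMM factors, filterByExpr, quasi-likelihood test) in R 4.3.3 as 16 group means, with 15 comparisons and 3 interactions. CPM values use the TMM factors. SEs come from the fold change and its statistic. Nanog classes were set on cells thinned to 2000 UMIs (seed 7, shallower cells left out). They were tested on the unthinned counts of the same cells, with library as a block, over 10871 genes. Replicate letters did not pair the libraries, so no block was used. On simulated counts for A2S day 6 against A2S day 2 (12173 genes), the test called 50.8% of 63 genes changed 1.5-fold, 74.6% of 63 changed 2-fold, 95.1% of 61 changed 4-fold, and 8 unchanged genes. The simulation held all other genes equal between groups and took their spread from the trend alone. In the data 50.3% of 13228 genes were called in that comparison, so these rates may not carry over. Alternatives were RLE factors, library totals, no count filter, a replicate block, listed feeder cells retained, a minimum of 5000 UMIs a cell, the compared groups alone, DESeq2 1.42.0, other thinning depths and each library left out. Replicates of each group differed by more than sampling noise, so none was counted as a copy, and depth per library (1727490 to 8848775 UMIs) limits genes of a few CPM. The intervals given cover counting error only, at a 95% level.

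Genes named with values were Atf4, Ddit3, Asns, Hspa5 and Xbp1. To these each comparison added called genes with a mean of at least 20 CPM in 1 of its groups, up to 6 that rose and 6 that fell, by size of the change. Up to 2 called genes each way were named per pathway list with the same minimum. Part of these were left to counts for length. Promoter windows are RefSeq's, and gene positions are from GENCODE. Figures were drawn with matplotlib 3.10.9.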

Additional observations from a re-analysis of the deposited data

Results flagged for a closer look

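The interaction of medium and day, tested with edgeR's quasi-likelihood test (Benjamini-Hochberg adjusted p under 0.05 over all genes), picked out 15 changes from day 4 to day 6 that differed from the change in A2S. In A2 they were Sdf2l1 (1.02), Asns (-0.74) and Aars (-0.65), in S2 they were Sdf2l1 (1.75) and the ER isomerase Pdia4 (1.10), each as a log2 difference. In AS the change was more positive for Cth (1.10), Pdia4 (1.21) and Sdf2l1 (1.16). It was more negative there for Phgdh (-1.13), Psat1 (-0.63), Psph (-0.90), Asns (-1.29), Aldh18a1 (-1.003), Aars (-0.84) and Gars (-0.59). Each of these media was set against the same A2S libraries. Without the library AS day 4 B, which had the higher macrophage marker sum of its group, the AS values were -0.45 for Phgdh, -0.54 for Psph, -0.26 for Gars, 0.63 for Cth and 0.98 for Pdia4, and none of these 5 was called.

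Cells on the authors' feeder list, taken over all libraries together, entered no comparison. In them 3 of the 37 genes were over 2 times the level of the higher MEF library, on counts scaled to library totals. Nupr1 had 595 CPM in the listed cells, against 103 and 100.01 CPM in MEF A and B. Ddit3 had 97.6 CPM, against 43.2 and 30.5 CPM. Slc7a3 had 8.68 CPM, against 1.72 and 3.28 CPM. The listed cells are 1 pool, so these differences were not tested. They made up 0% to 35.8% of the barcodes of a library. Whether feeder cells that the list missed were as uneven was not tested.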

How the results depend on the processing

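Over all single-gene results and alternatives, 8052 values stayed on their side of the threshold, 391 lost and 170 gained a call, and 7 reversed. Direction was compared only where 1 or both fits called the gene, so uncalled values among the 8052 may have changed sign. The reversals were Nars with library totals (0.0525 in ESC against MEF and 0.0061 on A2S day 2 against MEF), Cth in Nanog-positive FBS day 12 cells thinned to 1000 UMIs (-0.81), and, with feeder-listed cells kept, Psat1 on FBS day 3 against MEF (-0.0459), Nupr1 on A2S day 6 against ESC A2S (-0.23), Xbp1 in ESC A2S against ESC (0.0692) and Atf5 in S2 against A2S on day 4 (0.10). The cause was not tested. Counts of called genes moved in these cases. On day 4, S2 against A2S (2 genes, 1 with DESeq2) gave 5 without the count filter, 5 with feeder-listed cells kept and 1 with the replicate block. On day 6 it (4 genes) gave 7 without the filter and 8 with feeder-listed cells kept. The A2 change (3 genes) gave 5 without the filter, and the S2 change (2 genes) 5 without the filter and 1 with library totals. Nanog-positive A2S day 6 cells (8 genes) gave 13 at 4000 UMIs and 2 with DESeq2. With 1 library left out, the counts ran from 2 to 5 for A2 on day 4, 0 to 2 for S2 on day 4, 9 to 14 for A2 on day 6, 1 to 4 for the A2 change, 1 to 3 for the S2 change, 5 to 14 for the AS change and 1 to 2 for Nanog-positive A2S day 6 cells. Where this left a group with 1 library, that library was assumed to vary like the other groups. Over all genes, calls in AS against A2S on day 4 numbered 3954, and 1843 with the compared groups alone. The A2 change had 1005, and 652 with DESeq2. Nanog-positive cells had 2150 on A2S day 6, with 1402 at 1000 UMIs and 429 with DESeq2, and 2840 on FBS day 12, with 1727 with DESeq2. Library totals in place of TMM moved the median of all genes by 0.33 in ESC, 0.21 on FBS day 3 and 0.28 on A2S day 2 (each against MEF), by 0.12 on A2S day 6 against ESC A2S and against FBS day 6, by -0.13 in ESC A2S against ESC and by 0.25 in Nanog-positive FBS day 12 cells. The share of calls that were higher then moved from 49.5% to 60.6%, from 44.8% to 65.6% and from 45.9% to 66.6% in the MEF comparisons, from 53.9% to 43.3% in ESC A2S against ESC, from 55.2% to 36.4% in A2 on day 4, from 51.8% to 41.5% in A2 on day 6 and from 39.2% to 53.4% in those Nanog-positive cells. Replicate letters deviated together with a correlation of -0.33 to 0.28 over 120 pairs of groups (14 over 0.1), so they do not pair the libraries. The replicate block changed 3 calls among these genes: Atf5 was lost in S2 on day 4 (adjusted p = 0.0528), Sdf2l1 on FBS day 3 against MEF (22 called in place of 23, adjusted p = 0.0551) and Sesn2 on A2S day 6 against A2S day 2 (26 in place of 27, adjusted p = 0.0509). Of the shares of cells under other thinning, 25 of 26 moved by more than the spread between libraries.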

Other observations

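Some of the genes had their highest mean level in a reprogramming group and not in the stem cells or MEFs, and Slc7a11, Ddit4 and Pdia4 are described here. Slc7a11, the cystine importer, had 26.8 and 28.2 CPM on FBS day 12, against 0.546 and 0.281 CPM in ESC A2S, 2.95 and 2.96 CPM in ESC and 14.3 and 11.6 CPM in MEF. On A2S day 2 it had 31.7 and 19.8 CPM, which overlapped FBS day 12. Ddit4 had 285 and 242 CPM on S2 day 6, against 66.3 and 63.0 CPM in ESC A2S, 79.6 and 66.9 CPM in ESC and 30.4 and 30.6 CPM in MEF, and the S2 day 6 and A2S day 6 libraries overlapped. Pdia4 had 88.2 and 94.0 CPM on FBS day 9, against 30.3 and 36.3 CPM in ESC A2S, 20.6 and 22.2 CPM in ESC and 85.3 and 80.8 CPM in MEF. These groups were picked by the level itself, so the values are a description with no test.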
